A study of Rattus norvegicus with 11 samples.

Results

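The Nr4a genes encode 3 orphan nuclear receptors, Nr4a1 (Nur77, NGFI-B), Nr4a2 (Nurr1) and Nr4a3 (neuron-derived orphan receptor 1, NOR-1). They were followed here through every non-control array probe whose gene name in the array files is one of the 3 symbols. That gave 5 probes of 41012, with 1 probe for Nr4a1, 1 for Nr4a2 and 3 for Nr4a3, and all 5 were kept whether or not the probes of a gene gave the same value. A further probe, MGC105647, names Nur77 in its description as an upstream gene ("Nur77 downstream protein 2") and was not counted as a member.

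RNA was measured in the medial prefrontal cortex (mPFC) of male rats aged 4 months, 1 single-colour Agilent array per rat. The 6 heroin rats had licked a spout for intravenous heroin in 3-hour sessions on 14 days, and each of the 5 saline rats had received saline whenever a matched rat received heroin. Both groups then spent 14 days without drug and a 90-minute extinction session in the chamber, in which nothing was infused, directly before the tissue was taken. The rats' strain is not given in the sources used here, and the saline rats, though never exposed to heroin, went through the same session, so no group shows the level without it.

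Nr4a receptors bind DNA as monomers or dimers and are not known to need a ligand, so their activity follows largely from how much of the protein is made. In neurons their genes are immediate early genes, transcribed within minutes of calcium or cyclic AMP signalling through factors such as CREB, MEF2 and SRF, and their messages are short lived. Nr4a1 and Nr4a2 can also pair with retinoid X receptors, and Nr4a2 is required for midbrain dopamine neurons to form.

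The probes are DNA oligonucleotides of 60 bases whose rat genome positions the array files give in build rn3. The first 30 bases of each are shown, in lower case with nothing capitalised, because the 3 Nr4a3 probes read different stretches of the gene and gave different values. The Nr4a1 probe, designed on the transcript NM_024388, lies on chr7:140096879-140096938, plus strand. The Nr4a2 probe, designed on NM_019328, lies on chr3:38763393-38763452, minus strand. All 3 Nr4a3 probes lie on the plus strand of chromosome 5. The probe on NM_031628, which the array calls transcript variant 1, lies on chr5:64758249-64758308. The probe on the NOR-1 mRNA DQ268830 lies on chr5:64759221-64759280. The probe on NM_017352, transcript variant 2, lies on chr5:64732396-64732455.
Nr4a1: tccttccatgtgtacatagctgtcactcaa
Nr4a2: acaaaattgtaaattgtcttaaagaccatg
Nr4a3, variant 1: tggccgttttgctaagactcaaactttgaa
Nr4a3, NOR-1 mRNA: gtcttccatagttatcacaactatgagagc
Nr4a3, variant 2: ttgggttctcctgcatttagatagctctac

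The variant 1 and NOR-1 mRNA probes start 972 bases apart, and the variant 2 probe starts 25853 bases before the nearer of them in the direction of transcription. No pair of the 5 probes shared a run of more than 8 bases on either strand. The G and C content of the probes was 36.7% for Nr4a1, 41.7% for the variant 1 probe and 35% for the other 3. Whether a probe lies in a coding exon, an intron or an untranslated region was not analysed here.

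Signals were expressed as multiples of the array's median signal (array medians), and changes as the difference in mean log2 signal, heroin minus saline. All 5 Nr4a probes were well above background on all 11 arrays, and none was saturated or marked as an outlier on any. Between 28185 and 33835 probes were detected per array, 25587 were detected on all 11, and 25555 of these were tested with limma, two-sided. A probe was called changed where the unadjusted p was under 0.02 and the change at least 1.4-fold, the pair of thresholds in the methods. By this rule 1.79% of the tested probes were called higher in heroin rats (457 probes) and 0.927% lower (237 probes), 2.72% in all. After Benjamini-Hochberg adjustment 0 probes, or 0%, reached an adjusted p under 0.05, and the smallest was 0.263, with 4723 probes at an unadjusted p under 0.05 by limma and 4127 by the test the methods name. The split depended on scaling, being 218 higher and 239 lower after quantile normalization, 33 and 746 with the 75th percentile, 42 and 633 with the median of detected probes, and 122 and 4 after the normexp background correction. The median tested probe was 0.18 higher in heroin rats as scaled here and 0.01 higher after quantile normalization, so the quantile value is given beside each member's change.

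Nr4a3 carried the clearest difference between the groups, at the variant 1 and NOR-1 mRNA probes, while its variant 2 probe had a change of -0.04. Nr4a1 and Nr4a2 were both higher on average in heroin rats, by 0.59 and 0.41 on the log2 scale, but neither passed both thresholds. Of the 5 member probes 2 were called higher and 0 lower, beside the 1.79% and 0.927% of all tested probes. No member had an adjusted p under 0.05 in this limma fit. The first 4 probes stood at an adjusted p of 0.263 and the variant 2 probe at 0.964. With weights per array, an alternative fit, the adjusted p in limma was 0.0344 for Nr4a1 and 0.0203 for Nr4a2 and the first pair of Nr4a3 probes, as 7862 of all tested probes then had an adjusted p under 0.05.

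At the variant 1 probe of Nr4a3, heroin rats 1 to 6 had signals of 23.4, 22.5, 19.0, 22.8, 20.2 and 32.4 array medians, and saline rats 2 to 6 had 10.4, 13.4, 13.4, 17.9 and 11.6. Every heroin rat was above every saline rat, although the lowest heroin value, 19.0, was close to the highest saline value, 17.9. The means were 23.4 ± 4.71 (SD, n = 6) and 13.3 ± 2.86 (SD, n = 5), a change of 0.81 ± 0.17 (limma SE) or 1.76-fold. The p was 1.95e-04 by limma and 0.00216 by the exact permutation test over all divisions of the 11 rats into groups of 6 and 5, two-sided, which is the smallest that test can give. Groups without overlap and with heroin higher were found for 1.66% of all tested probes, against 0.129% with heroin lower. After quantile normalization the change was 0.56 (1.48-fold), the probe still passed both thresholds, as 0.853% of probes did in that direction, and the groups still did not overlap, as in 0.360% of probes.

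At the NOR-1 mRNA probe, heroin rats 1 to 6 had 26.8, 25.9, 25.2, 21.9, 26.1 and 26.8 array medians, and saline rats 2 to 6 had 12.6, 16.1, 14.4, 21.2 and 16.8. The heroin rats lay close together, within 1.23-fold of each other, and rat 4 was the lowest, just above saline rat 5. The means were 25.4 ± 1.85 (SD, n = 6) and 16.2 ± 3.21 (SD, n = 5), a change of 0.67 ± 0.14 or 1.59-fold with p = 2.32e-04 by limma and p = 0.00216 by the exact permutation test. After quantile normalization the change was 0.42 (1.34-fold), which fell short of the fold threshold, and the groups overlapped. With the 75th percentile it was 0.45, also short of the threshold.

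At the variant 2 probe, heroin rats 1 to 6 had 2.17, 4.22, 1.63, 4.46, 1.48 and 1.93 array medians, and saline rats 2 to 6 had 9.21, 3.12, 0.94, 4.16 and 0.82. The saline group held both the highest and the lowest rat, 11.3-fold apart, and no heroin rat was above saline rat 2. The change was -0.04 ± 0.53, with p = 0.938 by limma and a 95% interval from -1.18 to 1.1, and p = 0.948 by the exact permutation test. The SD within groups was 1.11 on the log2 scale, larger than at 99.7% of the tested probes, whose median was 0.27. The signal was 3.51 to 33.5 times the lowest signal that counted as detected on the same array, so the low rats were still measured. Leaving out saline rat 2 moved the change to 0.43, and leaving out saline rat 6 moved it to -0.44.

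The 3 Nr4a3 probes gave separate estimates of the gene's change, 0.81, 0.67 and -0.04. When all 3 were averaged the change was 0.48 and the gene was no longer called. The change at the variant 1 probe exceeded that at the variant 2 probe by 0.86, with an interval from -0.58 to 2.48 and p = 0.268 by an exact permutation test of the difference within each rat. For the NOR-1 mRNA probe against the variant 2 probe the difference was 0.71, with an interval from -0.90 to 2.37 and an exact permutation p of 0.366. The variant 1 and NOR-1 mRNA probes differed by 0.15, with an interval from -0.14 to 0.45 and an exact permutation p of 0.307. With 6 such comparisons made, the adjusted p values ran from 0.549 to 0.861, so neither a difference in change between the Nr4a3 probes nor its absence was shown.

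**Figure D1:**
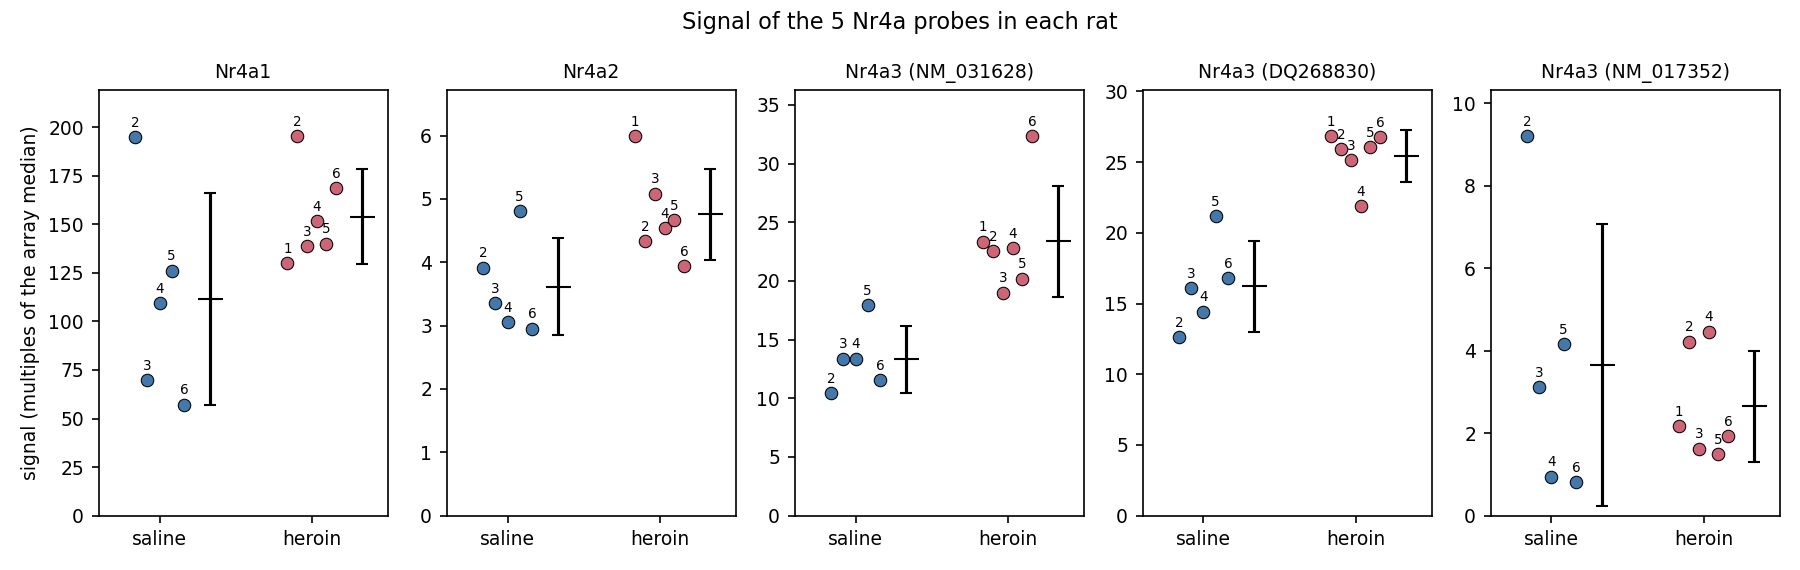
Signal of each Nr4a probe in multiples of the array median (linear axis from 0), by group, with the rat's number at each point and the mean ± SD at the side (6 heroin rats, 5 saline rats). The groups separate at the NM_031628 and DQ268830 probes of Nr4a3, overlap at Nr4a1 and Nr4a2, and overlap fully at the NM_017352 (variant 2) probe, where saline rats run from 0.82 to 9.21.

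Nr4a1, a member known to be induced within minutes in many cell types, had signals of 130, 195, 139, 151, 140 and 169 array medians in heroin rats 1 to 6, and 195, 69.6, 109, 126 and 57.2 in saline rats 2 to 6. The heroin rats were all above the saline median of 109, but saline rat 2 was as high as the highest heroin rat, and only 1 heroin rat was above it. The means were 154 ± 24.3 (SD, n = 6) and 111 ± 54.5 (SD, n = 5). The change was 0.59 ± 0.25 or 1.5-fold, with p = 0.0354 by limma and p = 0.0823 by the exact permutation test, and 0.35 after quantile normalization. The fold was past the threshold and the p was not. On the log2 scale the SD was 0.22 in heroin and 0.70 in saline rats. Without saline rat 2 the change was 0.83 and Nr4a1 was called, and without saline rat 6 it was 0.38.

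Nr4a2 had signals of 5.99, 4.33, 5.08, 4.53, 4.67 and 3.93 array medians in heroin rats 1 to 6, and 3.91, 3.36, 3.05, 4.81 and 2.95 in saline rats 2 to 6. All heroin rats were above the saline median of 3.36, and saline rat 5 lay above 4 of them. The means were 4.76 ± 0.71 (SD, n = 6) and 3.62 ± 0.76 (SD, n = 5), a change of 0.41 ± 0.15 or 1.33-fold with p = 0.0186 by limma and p = 0.0303 by the exact permutation test. Here the p was past its threshold and the fold was not, and after quantile normalization the change was 0.20. Without saline rat 5 the change was 0.52 and Nr4a2 was called.

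Nr4a1, Nr4a2 and Nr4a3 were not shown to differ from each other in how far they changed. The change of Nr4a1 exceeded that of Nr4a2 by 0.18 (interval -0.48 to 0.83, exact permutation p = 0.545). Nr4a1 against the NOR-1 mRNA probe of Nr4a3 gave -0.08 (-0.90 to 0.65, exact permutation p = 0.861), and Nr4a2 against that probe gave -0.26 (-0.61 to 0.08, exact permutation p = 0.130). These differences were taken within each rat, so dividing an array by 1 constant does not enter them, while quantile normalization does (0.14 for Nr4a1 against Nr4a2 and -0.22 for Nr4a2 against Nr4a3).

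**Figure D2:**
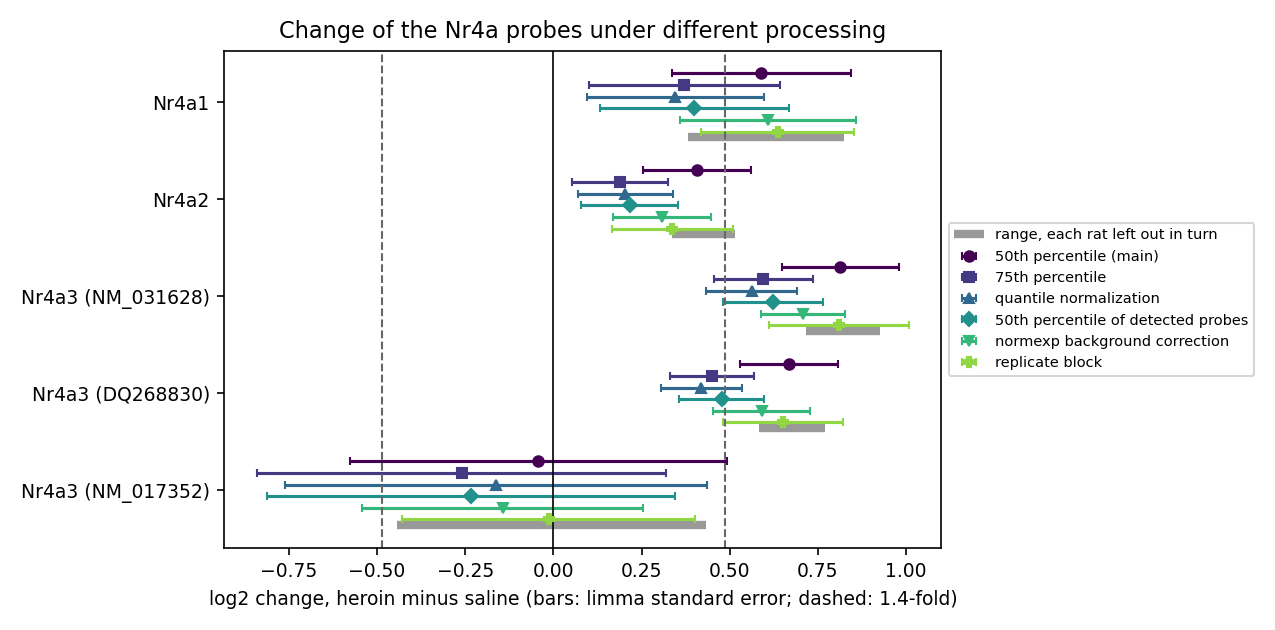
Log2 change of each Nr4a probe, heroin minus saline, under 6 ways of processing, with limma standard errors, a grey bar for the range when each rat is left out in turn, and dashed lines at 1.4-fold. The NM_031628 probe of Nr4a3 stays beyond 1.4-fold in all 6, from 0.56 to 0.81, the DQ268830 probe falls short of it in 3, and the variant 2 probe runs from -0.26 to -0.01 with long bars.

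Saline rat 5 was the highest saline rat for Nr4a2 and for the variant 1 and NOR-1 mRNA probes. The same rat had the highest summed signal of striatal marker genes, 65.2 array medians against 21.7 to 32.4 in the other saline rats and 23.6 to 30.9 in heroin rats. Of the 8 striatal symbols listed 6 were on the array and 5 were detected on all arrays. These 5 were Adora2a, Drd1a, Penk, Ppp1r1b and Rgs9, and they did not vary alike. In saline rats the SD was 12.6 on a mean of 20.9 for Penk, 4.32 on 5.65 for Rgs9 and 1.74 on 2.84 for Adora2a. It was only 0.27 on 2.06 for Ppp1r1b and 0.25 on 0.98 for Drd1a. The part of the striatal signal in the Nr4a values was not tested. Without saline rat 5 the changes were 0.93 at the variant 1 probe and 0.77 at the NOR-1 mRNA probe.

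No gene of the other marker lists was called, beside 2.72% of all tested probes called in either direction. Neurons (6 genes detected on all arrays), astrocytes (6), oligodendrocytes (6), microglia (6), endothelium (5), blood (3) and cells of layer 6b or claustrum (3) had 0 genes called in either direction, as had the striatal list. The summed neuronal signal was 538 to 719 array medians in heroin and 436 to 635 in saline rats, with Snap25 and Syt1 well above background in every rat. Oligodendrocyte genes varied widely between rats, from 353 to 884 in heroin and from 296 to 925 in saline rats, and saline rat 2, the highest saline rat for Nr4a1, was the lowest of all for them. The mean of the 6 endothelial genes on the array was lower by 0.16 on the quantile scale in heroin rats (exact permutation p = 0.0303, unadjusted over 8 lists). This mean includes Pecam1, at -0.46, which was well above background on only 5 arrays, and Tek, which was higher by 0.45. The part of the endothelial list in the Nr4a values was not tested. In whole tissue, fewer cells of a type and less RNA per cell cannot be told apart.

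The files give 6 scan times, and rats with the same number shared one, so that 5 scans held 1 heroin and 1 saline rat each, and heroin rat 1 had no partner. Within these 5 pairs the heroin rat was higher in 5 of 5 at the variant 1 probe, by 0.17 to 1.48, and in 5 of 5 at the NOR-1 mRNA probe, by 0.30 to 1.04. For Nr4a1 it was higher in 5 of 5, by 0.00 to 1.56, and for Nr4a2 in 4 of 5, with a mean of 0.34. At the variant 2 probe it was higher in 2 of 5, with differences from -1.49 to 2.24. After quantile normalization the heroin rat was higher in 5 of 5 pairs at the variant 1 and NOR-1 mRNA probes (means of 0.57 and 0.41), in 4 of 5 for Nr4a1 (mean 0.40, against 0.64 before) and in 4 of 5 for Nr4a2 (mean 0.15), and in 2 of 5 at the variant 2 probe. For 5 of 5 the exact sign-flip permutation test, two-sided, gave p = 0.0625, the smallest that 5 pairs allow. With the scan pair as a block in limma the changes were 0.81 and 0.65 at the first pair of Nr4a3 probes, which stayed called, and 0.64 for Nr4a1, which was then called. Every heroin array lay at position 4 of its slide and every saline array at position 3, so position and group cannot be told apart.

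**Figure D3:**
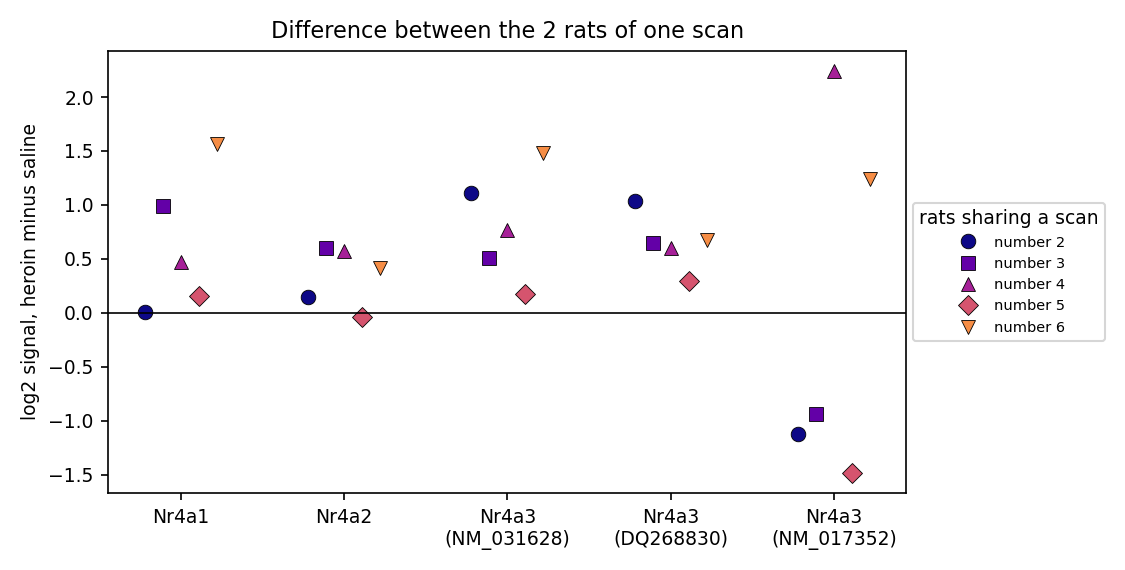
Difference in log2 signal between the heroin and the saline rat of each shared scan, for the 5 Nr4a probes, with a symbol for each of the 5 scan pairs. All pairs lie above 0 at the NM_031628 and DQ268830 probes of Nr4a3, Nr4a1 runs from 0.00 to 1.56, and the variant 2 probe is on both sides of 0.

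How the members varied among rats of one group was described by Pearson's r over the 11 rats, on quantile-normalized values with each group's mean removed. These are descriptions without p values. The named genes are the 5 closest among tested probes with a plain symbol of a gene other than the Nr4a genes. Names of predicted genes, unnamed loci and sequence entries were left out of that ranking. Because the closest were chosen, high values are partly a result of that choice. The points share their arrays, so array-wide differences enter every r.

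Nr4a1 varied closely with some rapidly induced genes and less with others. The genes closest to it were Rasl11a, a small Ras-like GTPase (r = 0.97), Fos and Junb, the subunits of the AP-1 transcription factor (0.95 and 0.92), Exoc7, an exocyst subunit (0.92), and Abra, an activator of SRF signalling (0.91). Fos itself ran from 9.76 to 16.9 array medians in heroin rats and from 4.76 to 16.9 in saline rats, and its highest saline rat was also saline rat 2. Without saline rats 2 and 6, the farthest from the median of Nr4a1, r was 0.77 with Fos, 0.82 with Junb and 0.94 with Rasl11a. Spearman's rank correlation over all 11 was 0.79, 0.75 and 0.94. With Egr1, a zinc finger factor of the same rapid class, r was 0.54, or 0.62 without the same saline rats and 0.39 without saline rat 2 alone. With Arc, a regulator of synaptic receptors, it was 0.75, or 0.47 without both rats, and with Atf3, a stress-induced transcription factor, it was 0.30.

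For the variant 2 probe of Nr4a3, r was 0.73 with Nr4a1, 0.05 with the variant 1 probe and -0.25 with the NOR-1 mRNA probe. The relation with Nr4a1 rested on saline rats 2 and 6, without which r was 0.18 with Nr4a1 and 0.27 with the NOR-1 mRNA probe. The probes closest to it were looked up after these values were seen, and those of Itpkb, Ier2, Trak2 and Nrm were among the first 5. With Ier2, an immediate early gene, r was 0.84 and was 0.72 without the same saline rats.

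The called Nr4a3 probes did not follow Fos within groups. The r of Fos was -0.45 with the NOR-1 mRNA probe, or -0.66 without saline rat 4 and heroin rat 4, and -0.19 with the variant 1 probe. Rapid genes differed in this, as r in the same order of probes was 0.29 and 0.37 with Egr1 and -0.37 and -0.42 with Arc. Between the NOR-1 mRNA and variant 1 probes r was 0.35, or 0.62 before quantile normalization. The genes closest to the NOR-1 mRNA probe were Pcp4, which modulates calmodulin (0.94), Dync1i1, a dynein chain (0.91), Mic2l1 (0.90), Cyb5r4, a reductase (0.90), and Cyp11b1, a steroid hydroxylase (0.88). For Nr4a2 they were B3gat1, a glucuronyltransferase (0.87), Syn3, a synapsin (0.87), Jund, an AP-1 subunit (0.85), Tnni3, a troponin (0.85), and Crebl2 (0.83). Of these 10 Crebl2, at a change of 0.66, was itself called, beside 2.72% of all tested probes called in either direction.

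**Figure D4:**
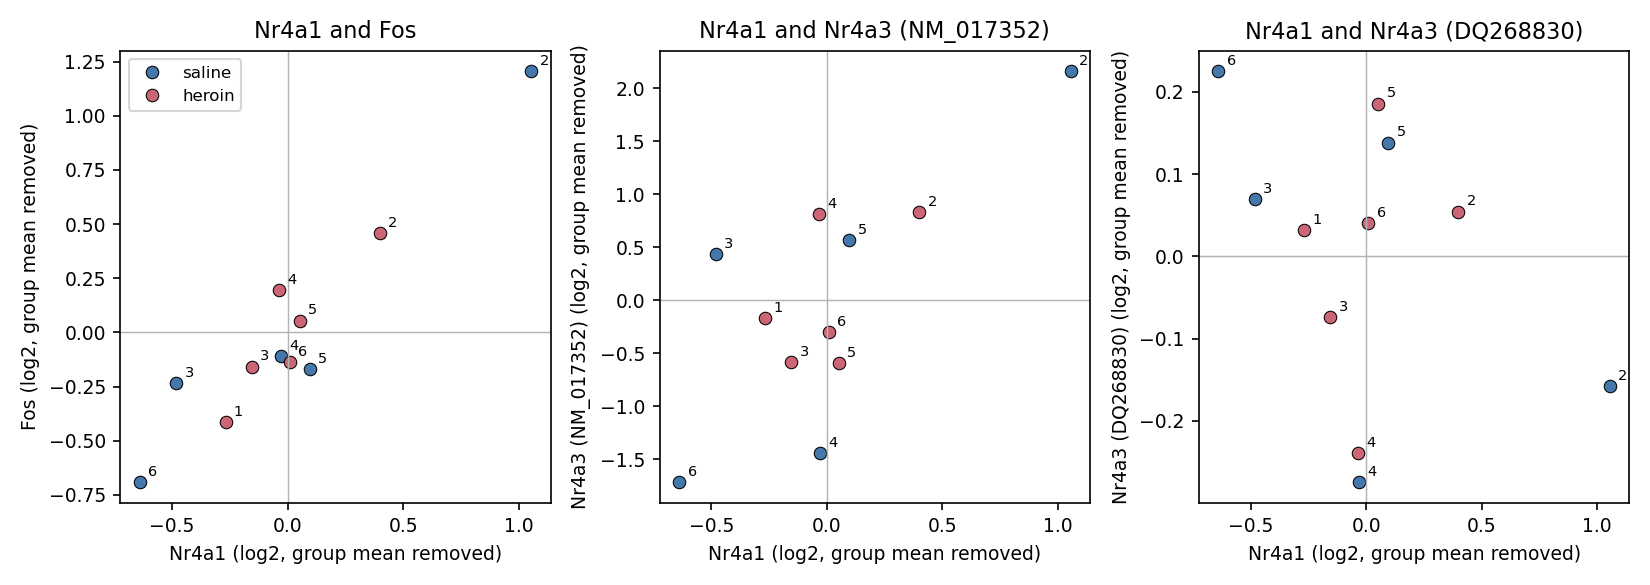
Nr4a1 against Fos and against the NM_017352 and DQ268830 probes of Nr4a3 in each of the 11 rats, as quantile-normalized log2 signal with the group mean removed and the rat's number beside each point. Fos rises with Nr4a1 (r = 0.95), the variant 2 probe does so mainly through saline rats 2 and 6 (r = 0.73, or 0.18 without them), and for the DQ268830 probe r is -0.37, or 0.09 without them.

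The RefSeq promoter of Nr4a1 in build GRCr8 is shown because Nr4a1 varied with Fos and Junb among rats. The 250 bases before its start, at chr7:134259888-134260137 on the plus strand, hold 4 copies of TGCGTCA, an AP-1-like element, in capitals, beginning 248, 228, 84 and 55 bases before the start.
Nr4a1 promoter: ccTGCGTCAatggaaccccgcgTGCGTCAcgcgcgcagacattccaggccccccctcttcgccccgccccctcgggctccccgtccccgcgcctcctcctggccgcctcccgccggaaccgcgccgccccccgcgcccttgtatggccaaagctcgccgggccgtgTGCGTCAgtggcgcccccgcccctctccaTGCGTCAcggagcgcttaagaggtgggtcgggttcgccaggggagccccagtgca

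This motif was chosen after the sequence was seen. Searched on both strands, it occurs at least once in 556 of 33469 promoters of this length (1.66%) and at least 4 times in 1 (0.00299%), that of Nr4a1. The full cyclic AMP response element TGACGTCA, held by 1.59% of promoters, and the CArG box bound by SRF, held by 1.5%, were not found in the Nr4a1 or Nr4a2 window. The CArG box was searched only in its strict form, CC and GG with nothing but A or T between, so near matches were not counted. The shorter TGACG, held by 18.2%, overlaps each TGCGTCA on the other strand, and occurred 4 times for Nr4a1, once for Nr4a2 and once for Junb. The Egr1 window held 2 TGACG and 2 CArG boxes. A match is a description of letters and no evidence that a factor binds. For Nr4a3 no promoter was shown.

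The other nuclear receptors gave 0 calls, beside 2.72% of all tested probes called in either direction. At that share, 0 calls do not set a list of this length apart. Of 45 listed genes 40 were on the array and 16 were detected on all arrays and tested, with 0 called higher, 0 called lower and a median change of 0.24, beside 0.18 for all tested probes. The changes ran from -0.09 to 0.37. The retinoid X receptors, dimer partners of Nr4a1 and Nr4a2, were among them. Rxrb was 4.36 ± 0.70 array medians (SD, n = 6) in heroin and 3.39 ± 0.38 (SD, n = 5) in saline rats, a change of 0.36 with p = 0.0193 by limma and p = 0.0152 by the exact permutation test that fell short of the fold threshold. Rxrg had a change of 0.36 with p = 0.139 by limma and p = 0.206 by the exact permutation test, and Rxra was detected on 10 of 11 arrays, 5 in each group, and was not tested.

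Genes that act before, with or after the Nr4a receptors were counted by list. The lists were chosen with earlier results of these data known, so the counts are descriptions, and the paper had already named Bdnf as increased. Beside these counts, 1.79% of all tested probes were called higher and 0.927% lower. Among the genes that induce Nr4a transcription (CREB, MEF2, SRF and their kinases) 16 of 20 were tested, with 0 called in either direction and a median change of 0.21. Among partners and cofactors 11 of 13 were tested, with 0 called in either direction and a median of 0.25. At those shares, 0 calls do not set either list apart. Among genes that respond to Nr4a proteins in other tissues 10 of 12 were tested, with 2 called higher, 0 lower and a median of 0.15. These were Bdnf, a neurotrophin that is itself a rapidly induced gene, and Vip, a neuropeptide of interneurons. Bdnf was 7.16 ± 1.01 array medians (SD, n = 6) in heroin and 3.95 ± 1.18 (SD, n = 5) in saline rats, a change of 0.90 with p = 3.15e-04 by limma and p = 0.00216 by the exact permutation test. Vip rose by 0.49 with p = 0.00208 by limma and p = 0.00433 by the exact permutation test, just past the fold threshold, and was not called after quantile normalization. The dopamine genes Th and Ddc, known Nr4a2 targets in the midbrain, had changes of 0.02 and 0.40 and were not called.

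Other rapidly induced genes had changes from -0.06 to 1.02, a range that holds those of all 5 Nr4a probes. Of 30 such genes 27 were tested, and their median change was 0.44. Beside the 1.79% of all tested probes called higher and 0.927% lower, 10 of these genes were called higher and 0 lower. The list was chosen with earlier results of these data known, so this count is a description and no test of the list. The paper had already named Egr1, Homer1, Dusp5, Dusp6 and Rgs2, all among the called genes, as increased in these rats. The 4 with the smallest p were Egr1 (0.66), Egr4 (0.87), Egr2 (1.02) and Dusp6 (0.63), of which the first 3 are zinc finger factors of 1 family and the last a phosphatase of ERK kinases. Arc rose by 0.70. Fos, at 12.8 ± 2.58 array medians (SD, n = 6) in heroin and 9.18 ± 4.61 (SD, n = 5) in saline rats, had a change of 0.58 with p = 0.0369 by limma and p = 0.0866 by the exact permutation test and was not called. Npas4 was detected on 7 of 11 arrays and was not tested. After quantile normalization 3 of the 10 remained called, and these were Egr2, Egr4 and Ptgs2, the inducible cyclooxygenase. Of all tested probes 0.853% were called higher in that setting.

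**Figure D5:**
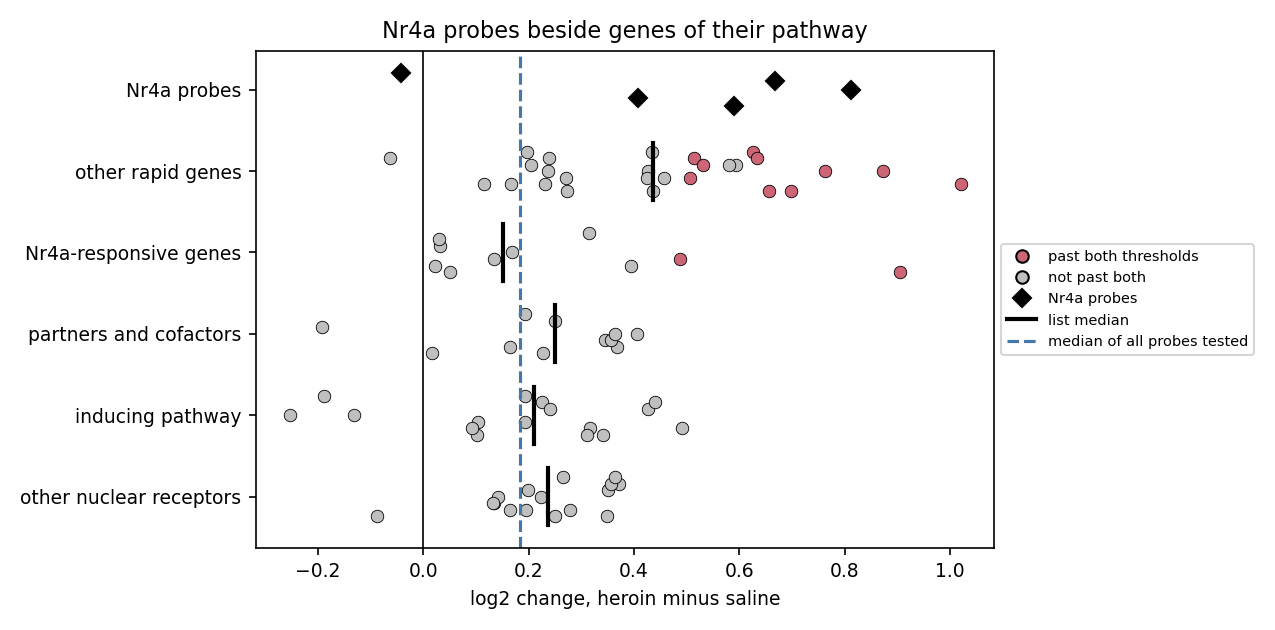
Log2 change, heroin minus saline, of the 5 Nr4a probes (diamonds) and of the tested genes of 5 lists, 1 point per gene, red where past both thresholds, with each list's median as a bar and the median of all tested probes (0.18) as a dashed line. Red points are found among other rapid genes (10 of 27) and Nr4a-responsive genes (2 of 10), beside 1.79% of all tested probes called higher. The lists were chosen with earlier results of these data known, so these counts are no test of a list. The variant 2 probe of Nr4a3 is the one diamond left of 0.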

How the data were processed

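The deposited signal intensity of each spot came from Feature Extraction, which per the file headers was version 9.5.1.1. It is corrected for background but arrays are not brought to a common scale. A second file the authors deposited gives each probe and rat a ratio, made in GeneSpring with the same floor and scaling and a division by the gene's median. It holds 23670 probes, and 99.9% of its centred log2 values were within 0.02 of those computed here. The methods give 12 arrays, of which 11 were analysed here.

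As in the methods, an intensity under 5 was raised to 5 and divided by the 50th percentile of all non-control probes on its array before log2 transformation. Spots that were controls or carried an outlier flag were dropped, and the spots of a probe averaged. The test took in probes well above background (at least 0.5 of spots) on all 11 arrays, apart from 32 with usable spots on fewer than 2 arrays of a group. Median signals were 42.7 to 78.3 on heroin and 58.0 to 83.2 on saline arrays, and the number of arrays limits the precision.

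Groups came from the sample titles. The groups were compared with limma 3.58.1 (lmFit, eBayes; R 4.3.3) by a two-sided test, and Benjamini-Hochberg adjustment ran across the 25555 probes. It replaced the one-way ANOVA of the methods, which was run as an alternative. Exact permutation tests took all divisions of the rats into 6 and 5, and intervals (95%) of differences between probes invert that test in steps of 0.01. The fit was tested on simulated data. No label names litters or days, so neither could be fitted. The p values set each difference between the groups against the spread between these rats.

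The genes named are all Nr4a probes, Rxra, Rxrb, Rxrg, Fos, Egr1, Arc and Npas4, and up to 4 called genes per list and direction by smallest p. Named too are the 5 probes with a plain symbol of another gene closest to the brightest probe of each member. Other names were added after their values were seen. One gene close to the variant 2 probe is not reported here. A list gene is represented by its brightest tested probe. The members and lists were chosen with earlier results of these data known. Symbols came from the array files, 14 probes entered a list through their RefSeq accession (GRCr8 table), and the promoter came from RefSeq.

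Alternatives were the 75th percentile, quantile normalization, the median of detected probes, normexp (offset 50), the authors' table, flagged spots kept, 2 other detection filters, the ANOVA, a trended and robust eBayes, weights per array, a block for the replicate number, the mean of a gene's probes, and leaving out each rat. The scan as a random block was added after the data were seen, with a within-scan correlation of -0.06.

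Each saline rat was matched to a heroin rat, but the sample titles do not say which. Rats with the same number deviated together in only some pairs (correlations of 0.38, -0.13, 0.35, 0.02 and -0.24 for numbers 2 to 6). These correlations cannot show which rats were matched. The numbers were not taken to pair the rats in the main test, though same-numbered rats shared a scan time.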

Additional observations from a re-analysis of the deposited data

Results flagged for a closer look

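At the NOR-1 mRNA probe of Nr4a3 the lowest heroin rat, rat 4 with 21.9 array medians, stood apart from the other heroin rats. The gap to the next rat was 0.683 of the whole range of the 6 on the log2 scale and 0.660 of it in array medians, both above Dixon's critical value for 6 samples. Without that rat the probe was still called. At the variant 1 probe the highest heroin rat, rat 6 with 32.4 array medians, was past the same value in array medians (0.674) and below it on the log2 scale (0.612). Without that rat the variant 1 probe was still called. Chance sets a rat apart in this way in about 1 of 20 groups, and 10 groups were examined on each scale.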

How the results depend on the processing

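The variant 1 probe of Nr4a3 was called in 13 of 14 alternatives and in 11 of 11 fits without 1 rat (0.71 to 0.93), the exception being the mean of the gene's probes (0.48). The NOR-1 mRNA probe was called in 10 of 14 and in 11 of 11 without 1 rat (0.58 to 0.77), and was not with the 75th percentile (0.45), quantile normalization (0.42), the median of detected probes (0.48) and the mean of probes (0.48). Nr4a1 ran from 0.38 to 0.83 without 1 rat and was called with array weights (0.74) and with the replicate number as a block (0.64). That block pairs rats of 1 scan, leaves out heroin rat 1 and changed no other member's call. With the scan as a random block over all rats Nr4a1 was 0.59 and was not called. Nr4a2 ran from 0.34 to 0.52 and was called with array weights (0.60). The variant 2 probe was 0.23 with array weights and ran from -0.44 to 0.43 without 1 rat. Nr4a1 minus the NOR-1 mRNA probe was 0.018 after normexp and ran from -0.30 to 0.24 without 1 rat, and Nr4a2 minus that probe from -0.35 to -0.14.

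Of all tested probes 694 were called, against 457 after quantile normalization, 126 after normexp, 308 by the methods' ANOVA, 1067 with detection in 1 group, 1560 with no detection filter, 2380 with array weights (7862 with an adjusted p under 0.05 in limma, the first 4 Nr4a probes among them), 790 with the replicate block, and 343 (without saline rat 2) to 2352 (without saline rat 5) without 1 rat. Without saline rat 3 there were 393. Rapid genes called were 2 with the 75th percentile, 3 after quantile normalization and 8 after normexp. Of all 25555 tested probes 33, 218 and 122 were called higher in these settings. Leaving out 1 rat gave 6 (without saline rat 3) to 13 (without saline rat 2) rapid genes. Nr4a-responsive genes called were 1 with the 75th percentile, quantile normalization or normexp and 1 to 2 without 1 rat, partners and inducers 0 to 2, and other nuclear receptors 0 to 1. The highest counts for partners, inducers and other nuclear receptors came without saline rat 5, when 9.21% of all tested probes were called. The cause of these shifts was not tested. The slide as a block was not run, since the files used here name no slide.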
